A study of Sus scrofa with 8 samples.

Results

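Insulin receptor signalling was described in the biceps femoris of the hind limb in piglets given a corticosteroid. The genes were the phosphatase PTPN1, the AKT-binding protein AKTIP, the insulin receptor INSR, its adaptor IRS1, the kinases AKT1 and AKT2, the lipid kinase subunit PIK3R1 and the glucose transporter SLC2A4. The 8 genes were chosen by name with the log2 differences between corticosteroid and control arrays known, those of PTPN1 and AKTIP among them. Members were all probe sets that the array's annotation gives to one of them alone. Of the 8, 7 were found, among 6765 genes with a single symbol on the array. They had 14 probe sets: 3 each for PTPN1, INSR and SLC2A4, 2 for AKT1 and 1 each for AKTIP, IRS1 and AKT2. PIK3R1 was not analysed here.

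Female domestic piglets (Sus scrofa) were sedated with isoflurane, with morphine and ketamine as needed, mechanically ventilated for 5 days, and given Ringer acetate, a glucose infusion, streptomycin and benzylpenicillin. The 4 corticosteroid arrays came from piglets that also received bolus doses of hydrocortisone, a glucocorticoid, in a protocol that speaks of a mean weight of 26.4 kg. The 4 control arrays came from piglets labelled as sedated and ventilated, in a protocol with a mean weight of 25.5 kg and an Escherichia coli endotoxin infusion of 36 µg/kg/h for 1 h. The source label of the controls leaves the endotoxin out, so whether they received it is not clear. No endotoxin is given for the corticosteroid arrays, so an endotoxin effect and a corticosteroid effect cannot be told apart. The series' design text also names the neuromuscular blocker pancuronium without saying which animals received it, and no age is given. Both groups are labelled with acute quadriplegic myopathy, a paralysing weakness seen in intensive care. Whether the arrays of a group stand for separate animals is not stated, and the p-values cover only the spread between arrays, which may be technical.

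Insulin binding to its receptor switches on the receptor's tyrosine kinase, which phosphorylates IRS proteins. These recruit phosphatidylinositol 3-kinase, AKT is activated, and vesicles carrying the glucose transporter GLUT4, the product of SLC2A4, move to the muscle cell surface. PTPN1 encodes PTP1B, the phosphatase that removes phosphate from the activated receptor and so brakes the signal. Glucocorticoids are known to make skeletal muscle less responsive to insulin. Some of the known steps act on phosphorylation and vesicle traffic, which arrays of transcript levels do not measure.

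The row order of the table touches the results given first. As deposited, the corticosteroid columns did not follow the probe IDs, and they were re-assigned to the IDs sorted as text with full stops ignored, while the control columns stayed as listed. This moved the rows of 4 of the 14 probe sets, namely those of AKTIP, IRS1, AKT2 and the best-detected PTPN1 probe set. The other 10 have the same row in both orders, and their values do not depend on the re-assignment. Around each of the 4 moved rows, the 100 nearest probe sets gave a correlation between the 2 groups' mean levels of 0.993 for PTPN1, 0.996 for AKTIP, 0.991 for IRS1 and 0.984 for AKT2. With the corticosteroid values shifted by 1 to 5 rows either way, the correlation lay between -0.18 and 0.187. These correlations are across probe sets, which share libraries and are not replicates, and the 4 probe sets themselves were left out. Because the order was first found from the values, the correlations are not an independent check of it. Over the whole array, the groups did not overlap for 5.75% of 5704 tested probe sets in moved rows, against 5.43% of 8657 in unmoved rows.

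**Figure D1:**
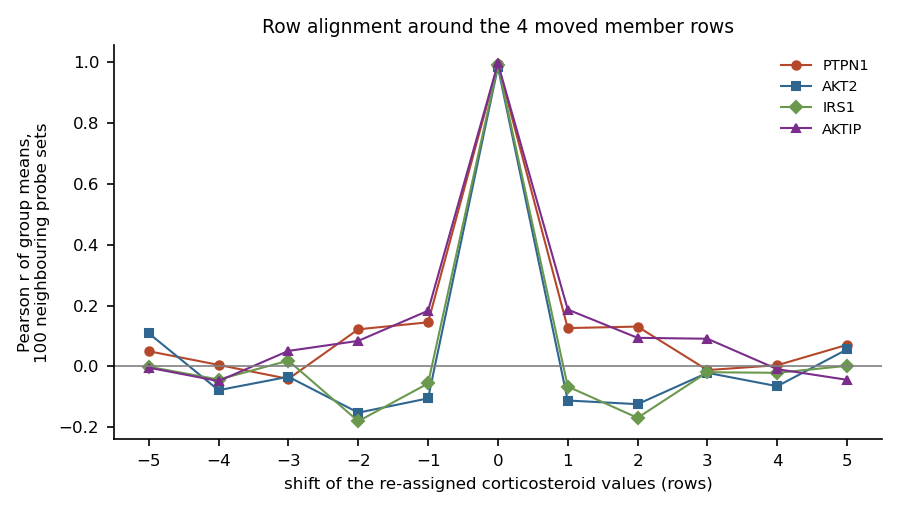
Pearson correlation (vertical axis) between corticosteroid and control mean log2 signals over the 100 probe sets nearest to each moved probe set, after shifting the re-assigned corticosteroid values by a number of rows (horizontal axis). At a shift of 0 the 4 curves stand between 0.984 and 0.996, and at every other shift shown they lie between -0.18 and 0.187.

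Among the members, the groups were fully apart for 1 probe set of PTPN1, lower with corticosteroid, and for the probe set of AKTIP, higher with corticosteroid. For the other 12 probe sets the arrays of the groups overlapped, and their log2 differences ran from -0.18 to 0.53. The transcripts of the receptor, its adaptor and the AKT kinases differed between the groups by at most 0.23 log2 units, with standard errors of 0.10 to 0.32. A level filter kept the 14361 probe sets with a mean log2 signal above the 40th percentile, 5.27. Of the 14 member probe sets 8 passed it, belonging to 5 genes, and all probe sets of INSR and IRS1 lay below it. In the limma fit over these 14361 probe sets, 0 (0.00%) had a Benjamini-Hochberg adjusted p under 0.05, and 1363 (9.49%) had an unadjusted p under 0.05, made up of 4.78% higher and 4.71% lower with corticosteroid. In moved rows the share was 9.41%. Over all tested probe sets the groups did not overlap for 5.56%, 3.05% higher and 2.51% lower with corticosteroid. Because the genes were listed with this comparison known, their differences are given with a standard error and no p, and nothing is read from the count of 2.

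**Figure D2:**
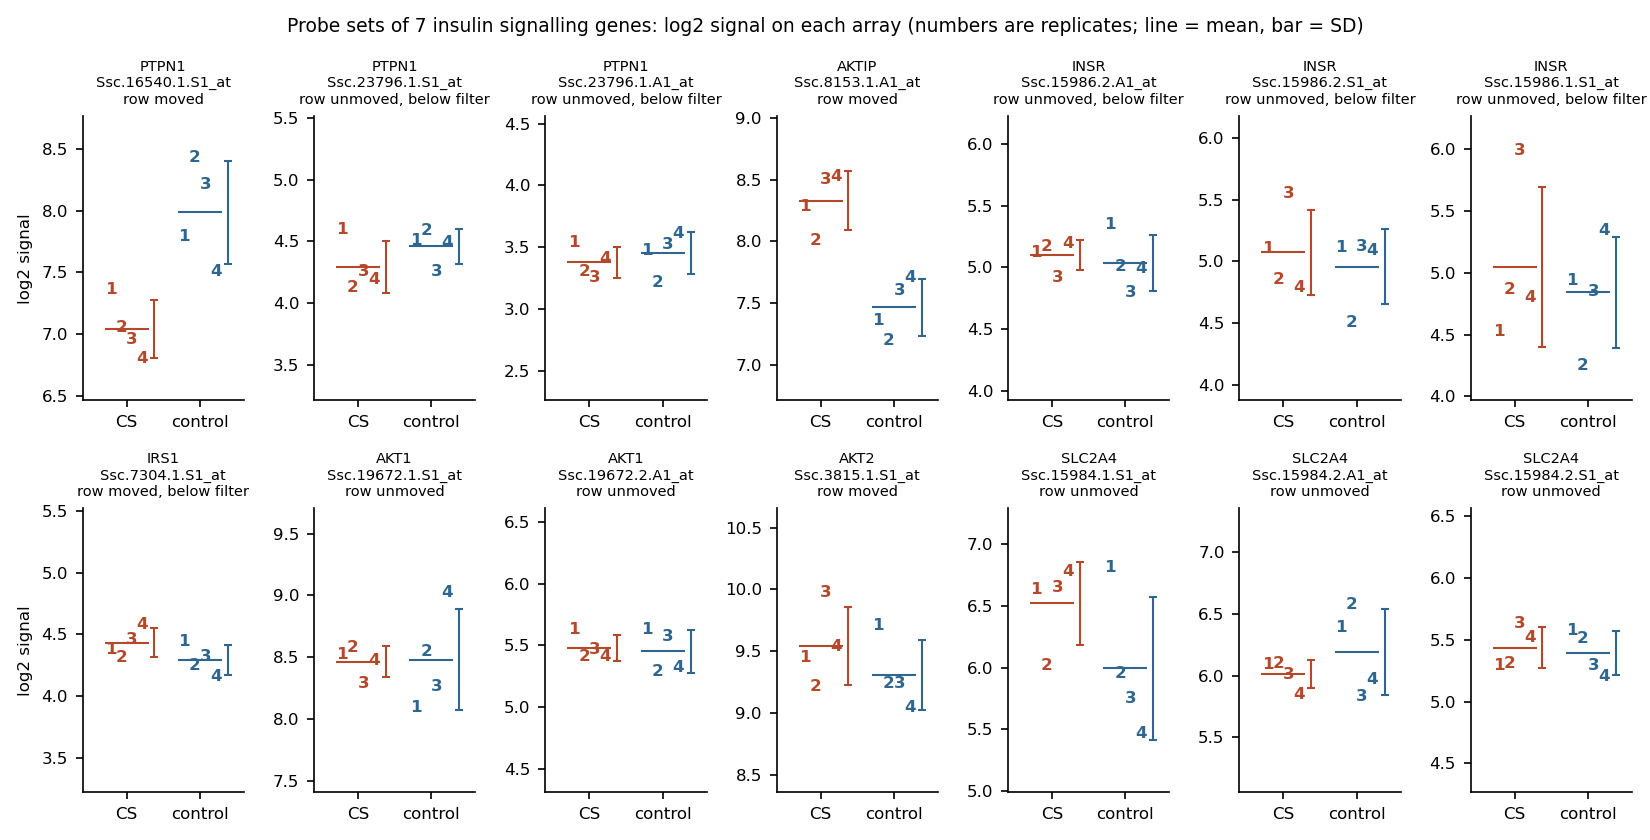
Log2 signal (vertical axis, the same span in each panel) of the 14 probe sets on the 4 corticosteroid (CS) arrays, left, and the 4 control arrays, right. Digits are replicate numbers, lines are means and bars are SDs. The PTPN1 probe set in the first panel and AKTIP show no overlap between the groups.

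PTPN1, the brake on the receptor, was lower with corticosteroid in its best-detected probe set. Ssc.16540.1.S1_at had log2 signals of 7.36, 7.05, 6.96 and 6.80 on corticosteroid arrays 1 to 4, against 7.79, 8.43, 8.21 and 7.51 on control arrays 1 to 4. Every corticosteroid array lay below every control array, the closest pair being corticosteroid array 1 and control array 4. The mean was 7.04 ± 0.23 with corticosteroid and 7.99 ± 0.41 in controls (SD, n = 4 each). The difference was -0.94 (SE 0.23), which is 0.52 times the control level. For comparison, the median difference in absolute size over all tested probe sets was 0.20 and the median standard error was 0.219. Leaving out each array in turn gave differences from -1.10, without control replicate 4, to -0.80, without control replicate 2.

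The other PTPN1 probe sets lay in unmoved rows and below the level filter, and in both of them the groups overlapped. Ssc.23796.1.S1_at had log2 signals of 4.60, 4.13, 4.26 and 4.19 with corticosteroid, against 4.51, 4.59, 4.26 and 4.49 in controls. Its difference was -0.17 (SE 0.13). Ssc.23796.1.A1_at ran from 3.25 to 3.54 with corticosteroid and from 3.21 to 3.61 in controls, a difference of -0.08 (SE 0.10). All 3 PTPN1 probe sets thus had lower means with corticosteroid, but the separation between the groups was seen in 1 of them. The mean of the 3 probe sets differed by -0.40. In the table as deposited the first probe set would read 12.21 in the corticosteroid group, a difference of 4.23 in the other direction, so its value rests on the re-assigned order.

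Macrophages also express PTPN1, and their markers had lower means with corticosteroid too. All 6 tested of 7 macrophage markers on the array had lower means, with log2 differences of -0.96 to -0.38 and adjusted p-values of 0.572 or more in limma. The mean log2 signal over the 7 markers was 6.67, 6.60, 6.37 and 5.85 on corticosteroid arrays 1 to 4, against 6.68, 8.02, 6.37 and 6.33 on control arrays. Control array 2 stood above the other 7, while the remaining control arrays, at 6.33 to 6.68, overlapped the corticosteroid arrays, at 5.85 to 6.67. Control array 2 also had the highest PTPN1 signal. Without it the PTPN1 difference was -0.80. Control array 3, second in PTPN1, had a macrophage marker mean of 6.37. Its mean over 3 erythroid markers was 8.01, against 5.57 to 6.25 on the other 7 arrays. CD163 averaged 7.38 with corticosteroid and 7.98 in controls. ITGAM, the marker that was not tested, lay below the level filter, at 4.15 with corticosteroid and 4.23 in controls. The part of macrophages or erythroid cells in the PTPN1 difference was not tested. In whole muscle, fewer cells of a type and less RNA per cell cannot be told apart.

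AKTIP encodes a small protein, related to ubiquitin-conjugating enzymes but lacking their catalytic cysteine, that binds AKT and takes part in the FTS-Hook complex of vesicle transport. Its probe set Ssc.8153.1.A1_at had log2 signals of 8.28, 8.01, 8.50 and 8.53 on corticosteroid arrays, against 7.36, 7.20, 7.60 and 7.71 on control arrays. All corticosteroid arrays were above all control arrays, and the spread was alike in both groups. The mean was 8.33 ± 0.24 with corticosteroid and 7.47 ± 0.23 in controls (SD, n = 4 each), a difference of 0.86 (SE 0.19) or 1.82 times the control level. Leaving out each array gave 0.77 to 0.97. AKTIP has a single probe set on the array, in a moved row, and in the table as deposited the difference would be -3.54.

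The receptor transcript, INSR, gave overlapping groups in all 3 of its probe sets, all in unmoved rows and below the level filter. Ssc.15986.2.A1_at, the highest of them, had log2 signals of 5.12, 5.17, 4.92 and 5.19 with corticosteroid, against 5.35, 5.01, 4.80 and 4.99 in controls, a difference of 0.06 (SE 0.14). Ssc.15986.2.S1_at differed by 0.12 (SE 0.21). Ssc.15986.1.S1_at differed by 0.20 (SE 0.32) and had the widest range of the 14 over the 8 arrays, from 4.53 to 5.99 with corticosteroid and from 4.25 to 5.34 in controls. Each of the 3 differences changed sign when 1 array was left out. The adaptor that the receptor phosphorylates, IRS1, had log2 signals of 4.38, 4.31, 4.46 and 4.58 with corticosteroid, against 4.44, 4.25, 4.32 and 4.16 in controls. The groups overlapped and the difference was 0.14 (SE 0.10). Its level was low and its row was moved, with a difference of -1.14 in the table as deposited. Whether a small change would show at signals this low was not tested.

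The AKT kinases carry the signal from phosphatidylinositol 3-kinase to glucose uptake and glycogen synthesis, and AKT2 is the form that insulin-stimulated glucose uptake depends on most in mouse muscle. AKT2 had log2 signals of 9.45, 9.21, 9.97 and 9.54 with corticosteroid, against 9.71, 9.24, 9.24 and 9.04 in controls. The mean was 9.54 ± 0.31 with corticosteroid and 9.31 ± 0.28 in controls (SD, n = 4 each), a difference of 0.23 (SE 0.22) which became 0.09 when corticosteroid replicate 3 was left out and 0.37 when control replicate 1 was. AKT1 had log2 signals of 8.52, 8.58, 8.29 and 8.47 with corticosteroid in Ssc.19672.1.S1_at, against 8.09, 8.55, 8.26 and 9.02 in controls. The means were nearly equal (difference -0.02, SE 0.22), and the control arrays were the more spread out, with an SD of 0.13 with corticosteroid and 0.41 in controls. Its sign turned with the array left out, the difference being -0.14 without control replicate 1 and 0.17 without control replicate 4. The other AKT1 probe set differed by 0.03 (SE 0.13). AKT2 lay in a moved row and both AKT1 probe sets in unmoved rows.

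The insulin-responsive glucose transporter SLC2A4 (GLUT4) had 3 probe sets above the filter, all in unmoved rows, and their mean differences did not share a sign. Ssc.15984.1.S1_at had log2 signals of 6.63, 6.02, 6.65 and 6.78 with corticosteroid, against 6.81, 5.95, 5.75 and 5.47 in controls. Control array 1 was the highest of the 8 and the other 3 controls the lowest, so the groups overlapped. The difference was 0.53 (SE 0.29), with 0.80 when control replicate 1 was left out and 0.35 when control replicate 4 was. Ssc.15984.2.A1_at ran from 5.85 to 6.10 with corticosteroid and from 5.83 to 6.58 in controls, a difference of -0.18 (SE 0.19). That difference was -0.30 without control replicate 3, -0.05 without control replicate 2, and 0.00 without both control array 2 and corticosteroid array 4. Ssc.15984.2.S1_at differed by 0.04 (SE 0.14). Averaged over the 3 probe sets the difference was 0.13. No direction is given for SLC2A4 from these values.

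**Figure D3:**
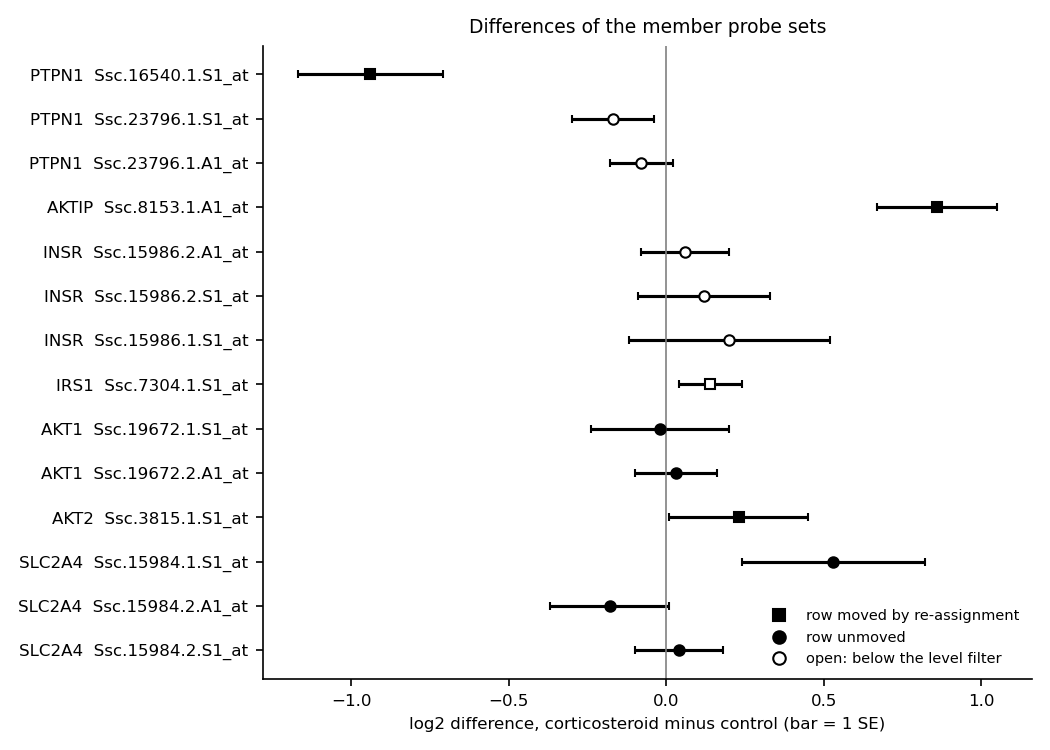
Log2 difference, corticosteroid minus control (horizontal axis), of each of the 14 probe sets, with bars of 1 SE. Squares mark rows that the re-assignment moved, circles unmoved rows and open symbols probe sets below the level filter. PTPN1 at -0.94 and AKTIP at 0.86 stand apart from the other 12, which lie between -0.18 and 0.53.

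The genes whose profiles over the 8 arrays lay nearest to PTPN1 were SRSF3, GRB2 and SYNCRIP. Likeness was the root mean square difference between profiles, each centred on its own mean, over 8 arrays and 5405 other genes. It was 0.20 log2 units for SRSF3, a splicing factor, and 0.22 each for GRB2, the adaptor that links receptor tyrosine kinases to RAS, and SYNCRIP, an RNA-binding protein, against a median of 0.64. GRB2, in an unmoved row, had log2 signals of 8.70, 8.37, 8.45 and 8.27 with corticosteroid, against 8.93, 9.95, 9.04 and 8.83 in controls. Its groups did not overlap, but it was picked for likeness to a profile that separates the groups, so this adds nothing. Its difference was -0.74 (SE 0.26), with an adjusted p of 0.479 in limma. Control array 2 was the highest array for both genes, and without it GRB2 differed by -0.48. Averaged over its probe sets GRB2 differed by -0.42 (SE 0.21). SYNCRIP differed by -0.84 (SE 0.24, adjusted p = 0.472 in limma) and SRSF3 by -0.72 (SE 0.28, adjusted p = 0.482 in limma).

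For AKTIP the nearest profiles were those of POLD4, HNRNPD and CLK3. The distances were 0.17 for POLD4, a DNA polymerase delta subunit, and 0.19 each for HNRNPD, an RNA-binding protein, and CLK3, a kinase of splicing factors, against a median of 0.54. POLD4 averaged 8.74 with corticosteroid and 7.91 in controls, a difference of 0.82 (SE 0.18, adjusted p = 0.469 in limma), and lay in a moved row. HNRNPD differed by 0.52 (SE 0.18) and CLK3 by 0.64 (SE 0.21), each with an adjusted p of 0.479 in limma and in unmoved rows. These genes were picked for likeness to profiles that separate the groups, so their own separation adds nothing.

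**Figure D4:**
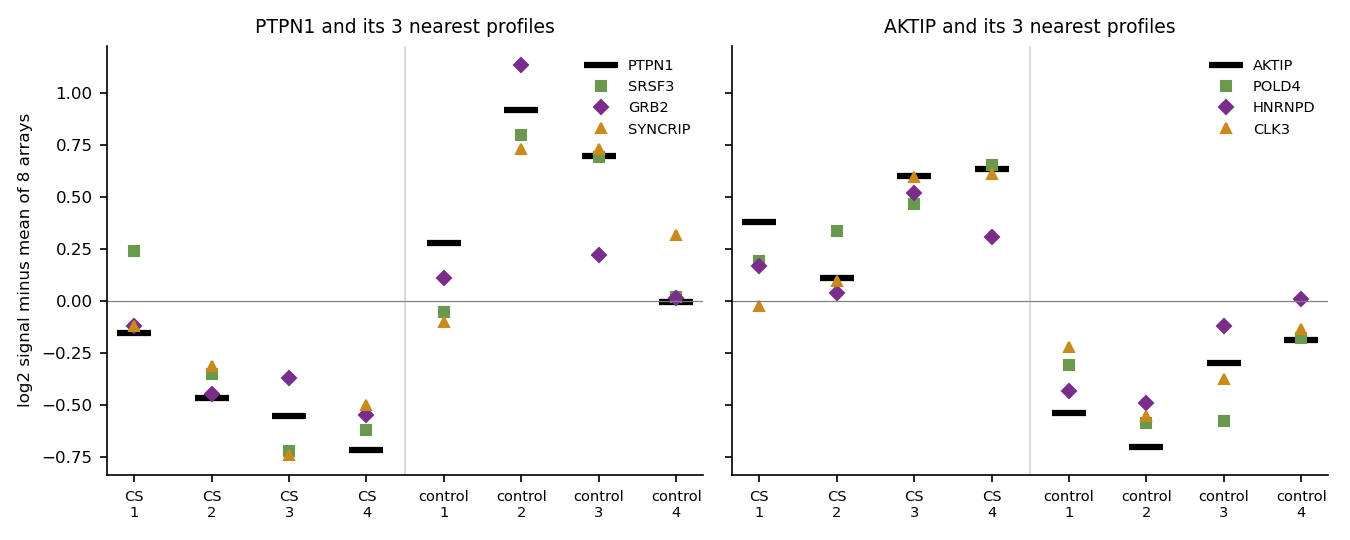
Log2 signal minus the gene's mean over the 8 arrays (vertical axis) for PTPN1 (left) and AKTIP (right), shown as black bars, and for the 3 genes with the nearest profiles, on corticosteroid (CS) and control arrays. PTPN1 and GRB2 both peak on control array 2, and AKTIP is above its mean on all corticosteroid arrays.

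The wider pathway was read from 6 lists that hold 171 genes, of which 97 were on the array and 90 passed the level filter, each by its probe set of highest mean. None of the 90 passed the limma test, their smallest adjusted p being 0.479. At an unadjusted p under 0.05 there were 7 of 90 (7.78%), 2 higher and 5 lower with corticosteroid, against 9.17% of all 5406 tested genes, 5.27% higher and 3.90% lower. The median difference of the 90 was -0.02, against 0.03 over all genes.

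The relay from receptor to protein synthesis had 17 tested genes, 8 with higher and 9 with lower means with corticosteroid, and a median difference of -0.02. Besides GRB2, the cap-binding translation factor EIF4E had an unadjusted p under 0.05. EIF4E averaged 6.75 ± 0.64 with corticosteroid and 7.82 ± 0.72 in controls (SD, n = 4 each), a difference of -1.07 (SE 0.41, adjusted p = 0.482 in limma). Leaving out control replicate 3 gave -0.77 and leaving out corticosteroid replicate 1 gave -1.36. EIF4E lay in a moved row, and with the rows as deposited it would differ by -2.45. MAPKAP1, a subunit of the mTOR complex that phosphorylates AKT, differed by 0.43 (SE 0.22) and MAPK3, the kinase ERK1, by 0.32 (SE 0.18).

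Among the other brakes on insulin signalling, 5 of 16 tested genes had higher and 11 lower means, with a median of -0.12 and 0 at an unadjusted p under 0.05. GRB10, an adaptor that binds and inhibits the insulin receptor, had a difference opposite to that of PTPN1. GRB10 averaged 10.97 ± 0.14 with corticosteroid and 10.39 ± 0.57 in controls (SD, n = 4 each), a difference of 0.58 (SE 0.26, adjusted p = 0.524 in limma), or 0.39 without control replicate 2. PPP2CB, a catalytic subunit of the phosphatase that acts on AKT, differed by -0.49 (SE 0.30), and by -0.20 without control replicate 3. The ubiquitin ligase CBLB differed by -0.48 (SE 0.32), and by -0.82 without control replicate 1. The stress kinase MAPK9, which phosphorylates IRS1 at inhibitory serines, differed by -0.27 (SE 0.19), and by -0.16 without control replicate 4.

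Genes of GLUT4 vesicle traffic had 9 higher and 13 lower means of 22 tested, with a median of -0.04. The clathrin heavy chain CLTC averaged 9.51 ± 0.58 with corticosteroid and 10.27 ± 0.47 in controls (SD, n = 4 each). Its difference was -0.76 (SE 0.32, adjusted p = 0.517 in limma). RAPGEF1, an exchange factor of the CBL branch of insulin signalling, had all corticosteroid arrays (10.97 to 11.29) above all control arrays (10.09 to 10.93). It differed by 0.44 (SE 0.20, adjusted p = 0.525 in limma), and by 0.26 without control replicate 2. Averaged over its probe sets RAPGEF1 differed by 0.18 (SE 0.20, adjusted p = 0.774 in limma). Together with VAMP3, a vesicle fusion protein at 0.23 (SE 0.15), it made 2 of 22 genes whose groups did not overlap, against 5.42% of all tested genes. VAMP3 was named after its values were seen. The glucose transporters SLC2A12 and SLC2A8 differed by 0.78 (SE 0.38) and -0.29 (SE 0.19), SLC2A8 by -0.16 without control replicate 2. SLC2A12 lay in a moved row. It differed by 0.54 without corticosteroid replicate 4, and by 0.33 without both control array 2 and corticosteroid array 4.

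Glucose phosphorylation, glycogen and pyruvate entry showed 7 higher and 7 lower means of 14 tested, and 0 at an unadjusted p under 0.05. Phosphoglucomutase PGM1 differed by 0.45 (SE 0.22) and muscle glycogen phosphorylase PYGM by 0.43 (SE 0.23). Hexokinase HK1 differed by -0.69 (SE 0.41) and PHKB, a subunit of phosphorylase kinase, by 0.50 (SE 0.33). All 4 shrank without control replicate 2, to 0.27 for PGM1, 0.19 for PYGM, -0.22 for HK1 and 0.19 for PHKB. PDK4, the kinase that shuts off pyruvate dehydrogenase and is known to be induced by glucocorticoids, had log2 signals of 12.59, 12.09, 12.30 and 7.27 with corticosteroid, against 13.11, 12.03, 11.30 and 11.92 in controls. Its difference of -1.03 (SE 1.06) was 0.24 without corticosteroid array 4.

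Glucocorticoid response genes tied to insulin resistance had 12 higher and 5 lower means of 17 tested, with a median of 0.45 against 0.03 over all genes. PER1, a clock gene, differed by 0.81 (SE 0.23, adjusted p = 0.479 in limma) and the transcription factor CEBPB by 0.62 (SE 0.27, adjusted p = 0.524 in limma). SESN1, a stress-responsive regulator of mTOR signalling, and LPIN1, a lipid phosphatase, differed by 0.94 (SE 0.45) and 0.87 (SE 0.43), and LPIN1 by 0.43 without control replicate 2. Averaged over its probe sets PER1 differed by 0.44 (SE 0.18). The glucocorticoid receptor NR3C1 differed by -0.18 (SE 0.23), by -0.37 without corticosteroid replicate 3 and by -0.07 averaged over its probe sets. On corticosteroid array 4 the glucocorticoid-induced genes FKBP5 and TSC22D3 stood at 9.62 and 10.60, against 11.15 to 11.25 and 12.42 to 12.66 on the other 3 corticosteroid arrays. The list's mean log2 signal was 9.50 on that array and 10.29 to 10.52 on the other corticosteroid arrays, against 9.36 to 10.09 on control arrays. On the same array PTPN1 stood at 6.80 and AKTIP at 8.53, and how either relates to the level of these genes was not tested. FKBP5 differed by 0.45 (SE 0.47) and TSC22D3 by 0.81 (SE 0.68), and without corticosteroid replicate 4 by 0.85 and 1.30. Without control replicate 2 they differed by 0.09 and 0.22.

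Of the list of AKTIP partners and AKT co-chaperones 4 genes were tested, none of them a Hook protein, with 2 higher and 2 lower means and a median of -0.14. The chaperone HSP90, which stabilises AKT, had lower means in both of its cytosolic forms. HSP90AA1 differed by -0.73 (SE 0.27, adjusted p = 0.479 in limma) and HSP90AB1 by -0.36 (SE 0.14, adjusted p = 0.482 in limma). In both the groups overlapped, and without corticosteroid replicate 3 they differed by -0.51 and -0.27. HSP90AA1 lay in a moved row, and with the rows as deposited it would differ by -7.71. The co-chaperone CDC37 differed by 0.17 (SE 0.19) and the kinase inhibitor PEBP1 by 0.09 (SE 0.18).

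**Figure D5:**
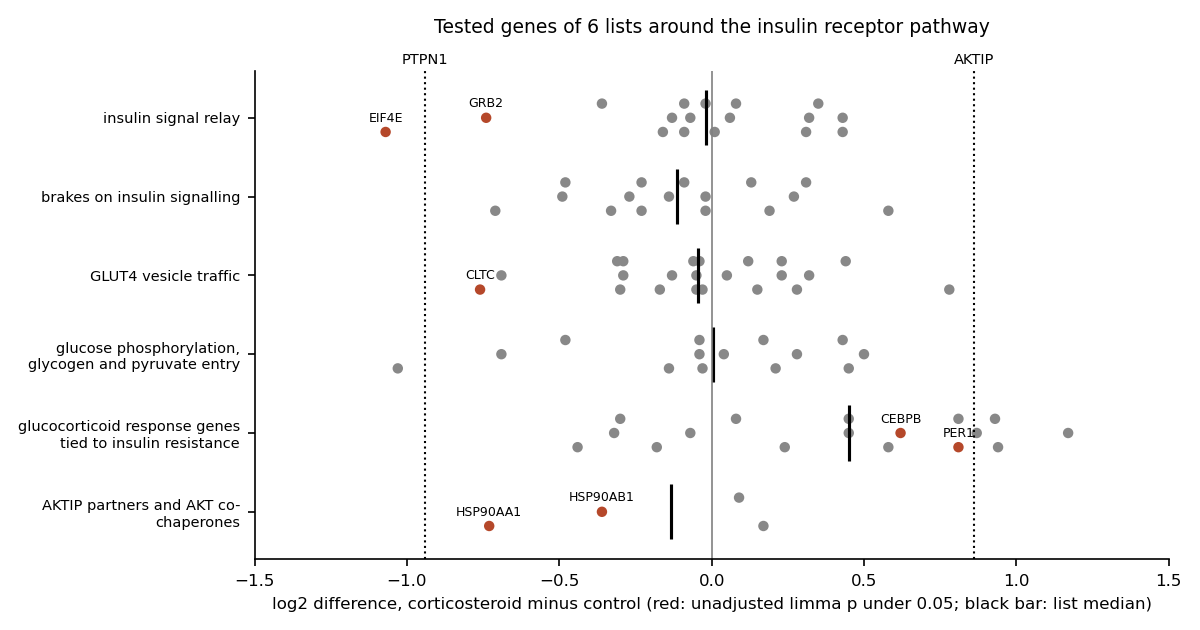
Log2 difference, corticosteroid minus control (horizontal axis), of the tested genes of 6 lists around the insulin receptor pathway, 1 point a gene, with list medians as black bars and dotted lines at PTPN1 and AKTIP. Red points are the 7 genes at an unadjusted limma p under 0.05. List medians lie between -0.14 and 0.45.

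Defining markers of the labelled tissue were high on every array, with a mean log2 signal over 9 skeletal muscle genes of 13.32 to 13.47 on corticosteroid arrays and 13.00 to 13.47 on control arrays. CKM averaged 14.03 with corticosteroid and 13.93 in controls. Markers of fibre types within the list differed in both directions. Slow myosin MYH7 averaged 11.09 with corticosteroid and 12.27 in controls (difference -1.17), while the fast-fibre troponins TNNT3, TNNI2 and TNNC2 differed by 0.66, 0.51 and 0.43. Of the 9 muscle genes, 4 had groups that did not overlap, against 5.42% of all tested genes. At an unadjusted p under 0.05 in limma there were 3, 2 higher and 1 lower, against 9.17% of all tested genes. The smallest adjusted p of the 9 was 0.469 in limma. The part of fibre type in the PTPN1 and AKTIP differences was not tested. Adipocyte, endothelial and fibroblast markers ranged, as list means, over 6.81 to 8.06, 7.49 to 7.76 and 8.75 to 9.38 with corticosteroid, against 7.04 to 8.02, 7.59 to 7.81 and 8.45 to 9.50 in controls. Within the fibroblast list 4 genes had higher and 2 lower means, with differences from -0.43 for COL1A2 to 1.31 for POSTN. Erythroid markers, as list means, ran from 5.57 to 6.23 with corticosteroid and from 5.95 to 8.01 in controls, the 8.01 on control array 3. Control array 2 was the least like its group, with a mean correlation across probe sets of 0.8994 with the other control arrays, against 0.9315 to 0.9535 for the other 7 arrays. Without control array 2 and corticosteroid array 4 together, PTPN1 differed by -0.72 (SE 0.24) and AKTIP by 0.71 (SE 0.21).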

How the data were processed

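Muscle RNA of 4 corticosteroid and 4 control samples was measured on an Affymetrix porcine array, 1 array a sample, grouped by the sample titles. The authors deposited 1 table of log2 signals for 23999 probe sets. MAS5 is named in the submitters' processing notes, with a scaling between arrays not given in the sources used here. With array medians of 5.873 to 5.972, the values were used unscaled. Precision is limited by the number of arrays.

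Corticosteroid values were re-assigned to the probe IDs sorted as text with full stops ignored, an order first found from the values, with 0 tied IDs. It moved 9389 rows (39.12%). The row check around the members was added after the data were seen. The 64 reporter probe sets were left out. Probe sets were named from the platform annotation, with 1 symbol for 10069, several for 198 and none for 13732, and 9961 of the first were found in the current RefSeq gene table of the pig, which changed 0 symbols. The sources used here name no genome build, and neither coordinates nor sequences are shown.

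The 2 groups were set against each other in limma 3.58.1, R 4.3.3 (lmFit and eBayes with an intensity trend), over 14361 probe sets above the 40th percentile of mean level, with Benjamini-Hochberg adjustment at 0.05. Standard errors of members below the filter come from the same fit without it. Simulated data with known changes served to test the script. A gene was its probe set of highest mean level. The members and lists were chosen with earlier results of these data known. Named besides the members were the 4 genes of smallest p in each list, the 3 genes nearest in profile to PTPN1 and to AKTIP, and NR3C1, FKBP5, TSC22D3 and PDK4. Replicate numbers did not pair the samples: deviations of same-numbered arrays from their group means correlated, across probe sets, between -0.2459 and 0.1095. None of the 28 pairs of arrays held identical values. Alternatives were a replicate block, quantile normalization, median centring, no filter or the 60th percentile, 16 added on the linear scale, eBayes without the trend or with robust estimation, array weights, averaged probe sets, each array left out, the rows as deposited and unmoved rows only. Leaving out control array 2 together with corticosteroid array 4 was added after the data were seen. Python 3.11.15, pandas 2.3.3 and matplotlib 3.10.9 prepared tables and figures.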

Additional observations from a re-analysis of the deposited data

Results flagged for a closer look

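Of 94 sets of 4 arrays looked at, 8 had 1 array far from the other 3, its gap to the nearest of them taking more of the range than the critical value of Dixon's test. Chance gives about 1 in 20. Of the 8, 4 concern corticosteroid array 4. It stood low for 3 glucocorticoid-induced genes, FKBP5 at 9.62 (others 11.15 to 11.25), TSC22D3 at 10.60 (others 12.42 to 12.66) and PDK4 at 7.27 (others 12.09 to 12.59). It was highest for MAPKAP1 at 9.18 (others 8.76 to 8.83), and corticosteroid array 3 was highest for NR3C1 at 8.65 (others 7.81 to 7.94). Among controls, array 2 was lowest for the INSR probe set Ssc.15986.2.S1_at at 4.50 (others 5.09 to 5.12). Control array 3 was highest for PPP2CB at 11.60 (others 10.36 to 10.56), and control array 1 was lowest for CBLB at 6.10 (others 7.40 to 7.54). No array of PTPN1 or AKTIP stood apart in this way.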

How the results depend on the processing

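The count of probe sets past the adjusted threshold stayed at 0 in all settings but 2. It was 0 to 1 over the fits that leave out 1 array, the 1 without control replicate 3, and 5454 with the rows as deposited. The number at an unadjusted p under 0.05 was 1363, with 892 to 1783 with 1 array left out (892 without corticosteroid replicate 4, 902 without control replicate 3), 2160 without the filter, 828 in unmoved rows only (fewer probe sets tested) and 6101 as deposited. With the replicate block it was 1332, and the count past the adjusted threshold stayed at 0. Of the pathway genes 0 passed in every setting except the rows as deposited, where 34 did. PTPN1 (Ssc.16540.1.S1_at) ranged from -1.10 to -0.80 with 1 array left out and was -0.85 with array weights and -0.40 averaged over its probe sets, and AKTIP ranged from 0.76 to 0.97 over all planned settings except the rows as deposited. Signs turned with the rows as deposited for MAPK9 (0.53), PHKB (-1.40), PEBP1 (-2.45), FKBP5 (-6.36), TSC22D3 (-4.75) and POLD4 (-1.35), and for PTPN1 (4.23), AKTIP (-3.54) and IRS1 (-1.14) among the members. Of the other genes in moved rows, EIF4E (-2.45), MAPKAP1 (2.71), PPP2CB (-6.39), HSP90AA1 (-7.71), SRSF3 (-0.08) and AKT2 (1.38) kept their sign as deposited but changed in size. SLC2A12, also in a moved row, did not pass the level filter as deposited and has no value there. With 1 array left out PEBP1 ran from -0.06 to 0.19 and PDK4 from -1.54 to 0.24. In each the turned sign was without corticosteroid replicate 4. Without control array 2 and corticosteroid array 4, CDC37 was -0.03, PEBP1 -0.07 and PDK4 0.22. The cause was not tested. Signal close to the low end of the array limits INSR, IRS1 and 2 of the 3 PTPN1 probe sets.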

Other observations

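Further genes of glucose entry and of insulin and glucocorticoid action were measured. The transporters SLC2A3 and SLC2A1 differed by -0.69 (SE 0.68) and -0.30 (SE 0.32), and the GLUT4 vesicle fusion proteins VAMP2 and STX4 by 0.23 (SE 0.18) and 0.15 (SE 0.20). Glycogen synthase GYS1, the enzyme that insulin activates through AKT, differed by -0.48 (SE 0.39). The transcription factor FOXO1, which AKT keeps out of the nucleus, differed by 0.08 (SE 0.39), and FOXO3 by 0.31 (SE 0.27). The growth inhibitor MSTN differed by 1.17 (SE 0.59) and the metabolic transcription factor KLF15 by 0.93 (SE 0.52). Adjusted p-values in limma for these 9 genes ran from 0.549 to 0.956. They were named after their values were seen.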
